A study of Mus musculus with 6 samples.

Results

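The genes described here are 10 genes of cell-cycle arrest and the p53 response in mouse cerebral cortex: the cyclin-dependent kinase inhibitors *Cdkn1a*, *Cdkn1b*, *Cdkn2a*, *Cdkn2c* and *Cdkn2d*, *Trp53* with its inhibitor *Mdm2*, and the Gadd45 family *Gadd45a*, *Gadd45b* and *Gadd45g*. They were chosen by name, and every probe set carrying one of these gene symbols was read. A probe set is the array's unit of measurement, several short probes matched to the same transcript. All 10 genes were found, at 22 probe sets of 45077 on the array, among 22527 gene symbols. Cerebral cortex RNA came from 6 male mice, 2 in each group, labelled 16 weeks old. The methods give this age ahead of acclimatization, administration and behavioral tests, after which the brains were taken. SAMR1 mice and SAMP8 control mice received water, and STEE-fed SAMP8 mice received the sugarcane top ethanolic extract (STEE) by mouth at 20 mg/kg for 30 days and during the 8 days of behavioral tests that followed. SAMP8 is an inbred senescence-accelerated strain with no transgene, and SAMR1 is a related senescence-resistant strain, so the strains differ across their genomes. According to the methods, all mice also drank the thymidine analog BrdU for part of the administration, and all were trained in a water maze.

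p53, the product of *Trp53*, is a transcription factor that is held low by the ubiquitin ligase Mdm2 and accumulates after DNA damage. It switches on *Cdkn1a*, whose product p21 blocks cyclin-dependent kinases and stops the cell cycle, as well as *Gadd45a* and *Mdm2* itself, which closes a feedback loop. The kinase inhibitors fall into the Cip/Kip family (*Cdkn1a*, *Cdkn1b*) and the Ink4 family (*Cdkn2a*, *Cdkn2c*, *Cdkn2d*), of which *Cdkn1a* and *Cdkn2a* are widely used as markers of senescent cells. Most cortical neurons no longer divide, and in them *Gadd45b* is known as a gene that neuronal activity induces and that takes part in DNA demethylation.

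Each value is the authors' mean log2 signal of a group, a relative scale on which 1 unit is a doubling, and a difference is that of 2 such means. Where 3 values follow a gene or list, they are in the order SAMR1, SAMP8 control, STEE-fed SAMP8. The means carry no spread between mice and no value of a single mouse was analysed here, so the differences have no error, no replicate check and no test. A difference was counted as past the threshold at 0.25 or more on the log2 scale (1.19-fold), and the share of all genes or probe sets past it is given with the counts. A gene was read at the probe set with its highest mean signal unless another probe set is named. Because SAMP8 control enters both the strain comparison and the comparison of STEE-fed SAMP8 with SAMP8 control, a control mean that is high or low by chance moves both differences, in opposite directions.

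The arrays as a whole gave near-equal medians of 4.16 in SAMR1 and 4.15 in both SAMP8 groups. All 6 markers of excitatory cortical neurons were measured above the median of all probe sets, among them *Slc17a7* (7.05, 7.10 and 7.19) and *Tbr1* (8.12, 8.28 and 8.57). Markers of other tissue also differed between groups. All 6 striatum markers were higher in SAMP8 control than SAMR1 past the threshold (4.25% of all genes), with differences of 0.32 to 0.89. Those of *Adora2a* and *Rgs9* averaged 0.24 and 0.23 over their probe sets. Of 6 oligodendrocyte markers, 4 were lower past the threshold (3.84% of all genes), with *Mog* at -0.63, and the summed signal of this list was 10172, 8925 and 8653. The summed linear signal of the striatum markers was 924 in SAMR1, 1479 in SAMP8 control and 1554 with STEE. The choroid plexus gene *Ttr* stood at 10.20, 8.24 and 9.33. At their brightest probe sets the other 4 choroid plexus markers differed by at most 0.18 in either comparison with SAMP8 control. Averaged over 2 probe sets each, *Clic6* differed by -0.31 between the strains and 0.14 with STEE, and *Kl* by -0.16 and 0.045. Of the choroid plexus list, 3 markers lay below the median of all probe sets. Among the cortical neuron markers, *Cux2* (-0.27) and *Neurod6* (-0.25) were lower in SAMP8 control than SAMR1, and *Tbr1* (0.29) and *Cux2* (0.30) were higher with STEE. Over its 3 probe sets *Cux2* averaged -0.18 and 0.11, within the threshold. Of 5 endothelial markers, *Cldn5* alone passed the threshold (-0.28 between the strains). None of the 4 pan-neuronal, 5 astrocyte, 6 microglia or 4 blood markers passed it against SAMP8 control. Of all genes, 8.09% passed it either way between the strains and 2.62% with STEE. The part of tissue composition in the strain differences below was not tested, and in tissue RNA fewer cells of a type and less RNA per cell cannot be told apart.

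Start-site sequences are shown for *Cdkn1a* and the Gadd45 genes, since these members had the largest differences or, for *Gadd45g*, belong to the same family. Each is the 250 bases before a RefSeq start site of build GRCm38.p6, read in the direction of transcription. Capitals mark matches to the p53 decamer (a single arm of the p53 response element) and to the TATA box TATAAA, both searched on both strands.

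Cdkn1a, upstream start, chr17:29090729-29090978, plus strand: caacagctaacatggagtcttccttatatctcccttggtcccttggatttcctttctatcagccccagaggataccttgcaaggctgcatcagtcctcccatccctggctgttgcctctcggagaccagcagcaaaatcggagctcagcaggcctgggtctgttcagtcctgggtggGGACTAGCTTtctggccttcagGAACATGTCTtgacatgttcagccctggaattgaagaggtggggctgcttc

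Gadd45a, chr6:67037408-67037657, minus strand: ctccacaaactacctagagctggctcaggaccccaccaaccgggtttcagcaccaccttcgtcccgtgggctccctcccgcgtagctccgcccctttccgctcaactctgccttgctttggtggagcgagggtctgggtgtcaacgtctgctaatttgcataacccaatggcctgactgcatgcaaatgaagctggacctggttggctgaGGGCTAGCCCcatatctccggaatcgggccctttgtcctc

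Gadd45b, chr10:80929841-80930090, plus strand: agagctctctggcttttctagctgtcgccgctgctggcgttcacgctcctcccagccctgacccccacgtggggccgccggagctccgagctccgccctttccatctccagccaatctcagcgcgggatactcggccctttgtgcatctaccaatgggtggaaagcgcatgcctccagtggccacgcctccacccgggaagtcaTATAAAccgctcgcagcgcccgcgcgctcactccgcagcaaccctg

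Gadd45g, chr13:51846425-51846674, plus strand: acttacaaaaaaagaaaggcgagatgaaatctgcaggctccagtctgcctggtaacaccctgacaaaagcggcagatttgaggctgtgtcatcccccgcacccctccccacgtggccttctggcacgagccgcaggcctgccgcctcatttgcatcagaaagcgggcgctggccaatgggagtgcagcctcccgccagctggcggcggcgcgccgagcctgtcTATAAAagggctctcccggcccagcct

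The upstream *Cdkn1a* window held 2 p53 decamers, GGACTAGCTT from 73 to 64 and GAACATGTCT from 51 to 42 bases before the start site. The window of its downstream start, 2790 bases further on, held none. *Gadd45a* held a single decamer, GGGCTAGCCC, from 40 to 31 bases before its start. *Gadd45b* and *Gadd45g* held no p53 decamer and each held a TATA box, from 46 to 41 and from 27 to 22 bases before the start, and an E-box CACGTG. Over the 13 windows of the 10 genes, 5 genes had a p53 decamer (*Cdkn1a*, *Cdkn2d*, *Gadd45a*, *Mdm2* and *Trp53*), which 7.13% of 32851 mouse start-site windows also had. A TATA box was found in 3 genes (12.4% of all windows), an E-box in 2 (6.02%), a GC box GGGCGG in 8 (32.7%) and a CCAAT box in 7 (33.8%). No member had the AP-1 motif TGANTCA (6.75% of all windows), the short cyclic AMP response element TGACG (17.8%) or its full form TGACGTCA (1.55%). The motif counts are of genes with a match in any of their windows, whereas the shares are of single windows. *Cdkn1a*, *Cdkn2a* and *Cdkn2c* had more than 1 window, which gives them more room for a match. The motifs overlap in part, as the short element lies in the full one. A match describes letters in these windows and is not a binding site.

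**Figure D1:**
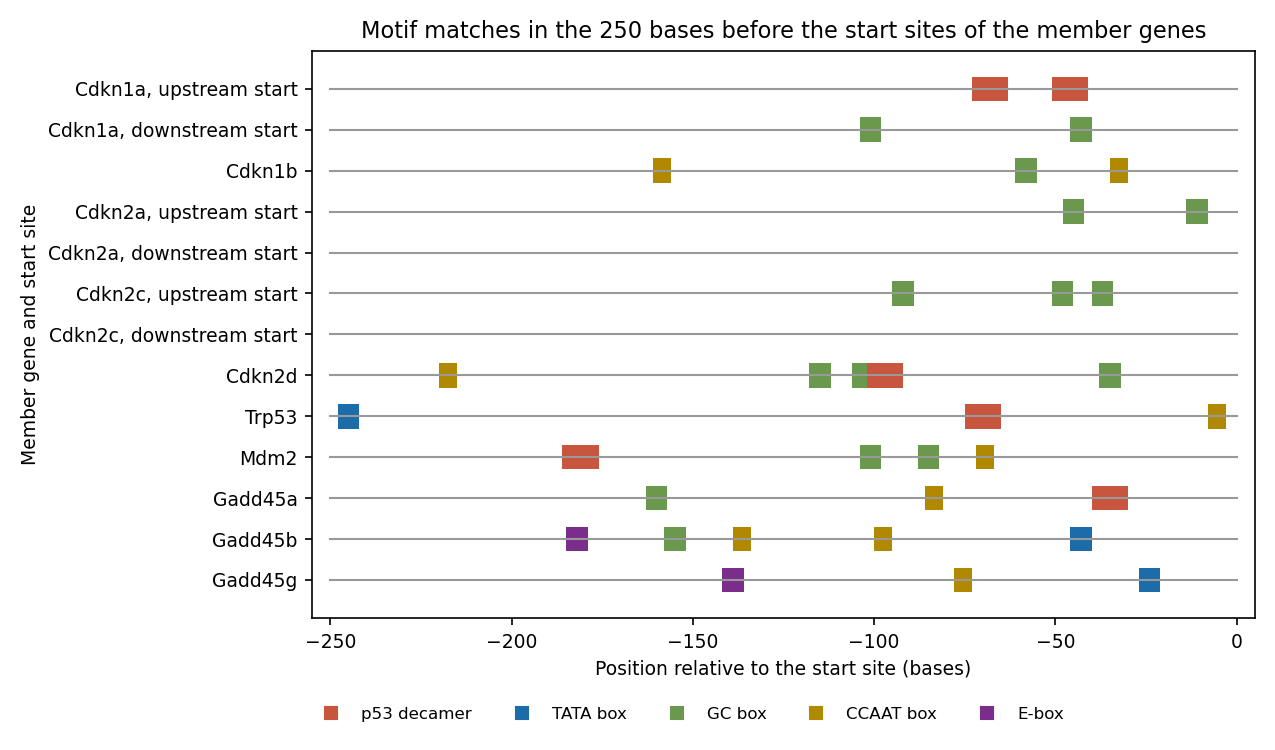
Motif matches along the 250 bases before each start site of the 10 genes, with the position in bases relative to the start site on the horizontal axis and 1 row per start site. Red boxes are p53 decamers, of which the upstream Cdkn1a start has 2, and blue boxes are TATA boxes, which Gadd45b and Gadd45g carry near the start.

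Between the strains, *Cdkn1a*, *Gadd45a* and *Gadd45b* were higher in SAMP8 control than SAMR1, and no member was lower by the threshold. These 3 genes of 10 compare with 4.25% of all genes that were higher and 3.84% that were lower. Counted by probe set, 5 of the 22 were higher, against 4.32% of all probe sets, and 0 were lower, against 4.20%. The median difference was 0.085 over the 10 genes and 0.00 over all genes. With STEE, *Gadd45a* and *Gadd45b* were lower than in SAMP8 control and no member gene was higher by the threshold, against 1.22% of all genes lower and 1.40% higher. Of the 22 probe sets, 4 were lower and 1 was higher with STEE, against 1.30% and 1.37% of all probe sets. The median difference with STEE was -0.04 over the 10 genes and 0.00 over all genes.

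**Figure D2:**
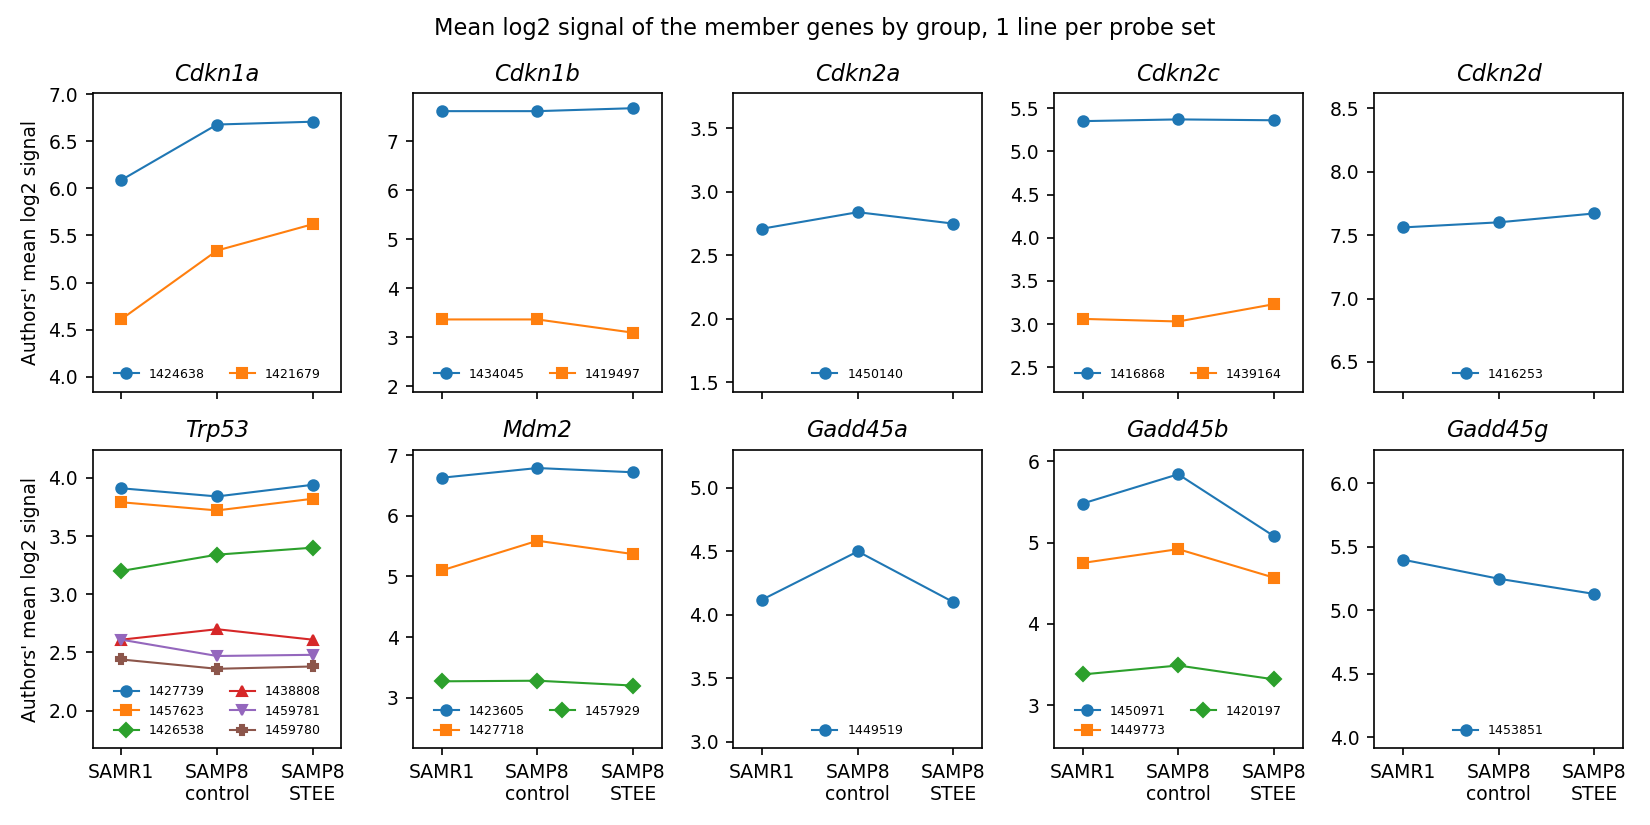
Authors' mean log2 signal (vertical axis, with a range of its own in each panel) in SAMR1, SAMP8 control and STEE-fed SAMP8 for each of the 10 genes, 1 line per probe set. Both Cdkn1a probe sets step up from SAMR1 to SAMP8 control, and Gadd45a and all 3 Gadd45b probe sets peak in SAMP8 control, while the Ink4 genes and Trp53 stay nearly level.

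*Cdkn1a*, which encodes p21, showed the largest strain difference of the members. At its brighter probe set, 1424638_PM_at, the mean log2 signal was 6.09 in SAMR1, 6.68 in SAMP8 control and 6.71 with STEE. SAMP8 control was higher than SAMR1 by 0.59 (1.51-fold), a size that 0.876% of all probe sets reached in either direction. STEE-fed SAMP8 differed from SAMP8 control by 0.03 only. The second probe set, 1421679_PM_a_at, gave 4.61, 5.34 and 5.62, so that SAMP8 control was higher by 0.73 (1.66-fold) and STEE-fed SAMP8 was higher again by 0.28 (1.21-fold). Both probe sets thus placed the SAMP8 groups above SAMR1, and they differed on STEE, where a difference past the threshold stood at the dimmer probe set alone. Relative to SAMR1, STEE-fed SAMP8 was higher by 0.62 and 1.01 at the 2 probe sets. The striatum markers had the same order of groups in summed signal, and their part in the *Cdkn1a* difference was not tested. *Cdkn1a* was the member with the start-site window that held 2 p53 decamers.

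*Cdkn1b*, which encodes the related inhibitor p27, was level between the strains. Its brighter probe set, 1434045_PM_at, gave 7.61 in SAMR1, 7.61 in SAMP8 control and 7.67 with STEE. The other, 1419497_PM_at, gave 3.36, 3.36 and 3.09, a difference of -0.27 with STEE. That probe set lay below the median over the whole array (4.15), and the direction with STEE was opposite at the brighter one. The third Cip/Kip gene, *Cdkn1c* (p57), which is no member, was lower in SAMP8 control than SAMR1 by 0.39, from 4.75 to 4.36, and stood at 4.24 with STEE.

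No Ink4 gene passed the threshold at any of its 4 probe sets in any comparison. The shares of all probe sets past it either way were 8.52% (strains), 2.67% (STEE-fed SAMP8 vs. SAMP8 control) and 9.45% (STEE-fed SAMP8 vs. SAMR1). *Cdkn2a*, whose locus encodes both p16Ink4a and p19Arf, gave 2.71 in SAMR1, 2.84 in SAMP8 control and 2.75 with STEE at its only probe set, near the floor of the array, where the lowest mean of any probe set was 1.98 in SAMR1. Its strain difference of 0.13 was reached or exceeded by 28.9% of all probe sets, and by 13.1% of the 12555 probe sets within 0.5 of its mean signal. The probe set does not separate the 2 transcripts of this locus here. *Cdkn2c* (p18Ink4c) gave 5.35, 5.37 and 5.36 at its brighter probe set, and 3.06, 3.03 and 3.23 at the other. *Cdkn2d* (p19Ink4d) gave 7.56, 7.60 and 7.67. Both were thus measured with little difference between groups, and the neighbouring inhibitor *Cdkn2b* (p15Ink4b) likewise differed by 0.13 and -0.02.

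*Trp53* was represented by 6 probe sets, and the mean signal of each lay below 4.15, the array median. The brightest, 1427739_PM_a_at, gave 3.91 in SAMR1, 3.84 in SAMP8 control and 3.94 with STEE. Over the 6 probe sets the strain difference ran from -0.14 to 0.14 and averaged -0.02, and that with STEE ran from -0.09 to 0.10 and averaged 0.03. None passed the threshold, against 8.52% and 2.67% of all probe sets either way, and neither direction was shared by all 6. The array measures *Trp53* mRNA, whereas p53 is regulated largely at the protein, which was not measured.

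*Mdm2*, the target and inhibitor of p53, differed between probe sets. At the brightest, 1423605_PM_a_at, it gave 6.63, 6.79 and 6.72, a strain difference of 0.16. At 1427718_PM_a_at it gave 5.10 in SAMR1, 5.59 in SAMP8 control and 5.37 with STEE, a strain difference of 0.49 (1.40-fold) that 1.41% of all probe sets reached. The third, 1457929_PM_at, gave 3.27, 3.28 and 3.20 below the array median. All 3 were higher in SAMP8 control than SAMR1, by 0.01 to 0.49, and all 3 were lower with STEE, with differences of -0.07 to -0.22 that stayed within the threshold. The size of the strain difference therefore depended on the probe set, with a mean over the 3 of 0.22.

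The Gadd45 genes encode small stress sensors that bind and activate the kinase MEKK4 (*Map3k4*) upstream of p38 and JNK, and that interact with p21 and PCNA. All 5 Gadd45 probe sets were lower in STEE-fed SAMP8 than SAMP8 control, with differences of -0.12 to -0.76, and 3 of the 5 passed the threshold, against 1.30% of all probe sets lower. Between the strains 4 of the 5 were higher in SAMP8 control, 2 of them by the threshold (4.32% of all probe sets), and *Gadd45g* was lower.

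*Gadd45b* had the largest difference with STEE of the 22 probe sets. At its brightest probe set, 1450971_PM_at, the mean was 5.48 in SAMR1, 5.84 in SAMP8 control and 5.08 with STEE. STEE-fed SAMP8 was lower than SAMP8 control (difference -0.76, 1.69-fold), a size reached in either direction by 17 of all 45077 probe sets, and it ranked 13 from the lowest. Against SAMR1, STEE-fed SAMP8 was lower (difference -0.40), so the STEE value lay below both water groups. The other probe sets gave 4.75, 4.92 and 4.57 at 1449773_PM_s_at, and 3.38, 3.49 and 3.32 at 1420197_PM_at. All 3 had the order SAMP8 control, SAMR1, STEE-fed SAMP8 from highest to lowest, and the difference with STEE was -0.76, -0.35 and -0.17 from the brightest to the dimmest. The strain difference, 0.36 at the brightest, was 0.17 and 0.11 at the others, and its mean over the 3, 0.21, did not reach the threshold. Probe set 1449773_PM_s_at is of a kind that can bind related transcripts. The study lists *Gadd45b* among the genes it selected from these same arrays, so its values are a description and no independent evidence.

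*Gadd45a* was read by a single probe set, 1449519_PM_at, with 4.12 in SAMR1, 4.50 in SAMP8 control and 4.10 with STEE. SAMP8 control was higher than SAMR1 by 0.38 (1.30-fold) and STEE-fed SAMP8 was lower than SAMP8 control (difference -0.40, 1.32-fold). Sizes like these were reached by 2.86% and 0.388% of all probe sets. The STEE and SAMR1 values were 0.02 apart. *Gadd45a* and *Gadd45b* were 2 of 96 genes, 0.426% of all, that were past the threshold in both comparisons, with the highest mean in SAMP8 control. Both differences use the same control mean.

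*Gadd45g* had its highest mean in SAMR1, and no test of its difference from the other Gadd45 genes could be made. Its only probe set, 1453851_PM_a_at, gave 5.40 in SAMR1, 5.25 in SAMP8 control and 5.13 with STEE. Neither step passed the threshold, and STEE-fed SAMP8 was lower than SAMR1 (difference -0.27).

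**Figure D3:**
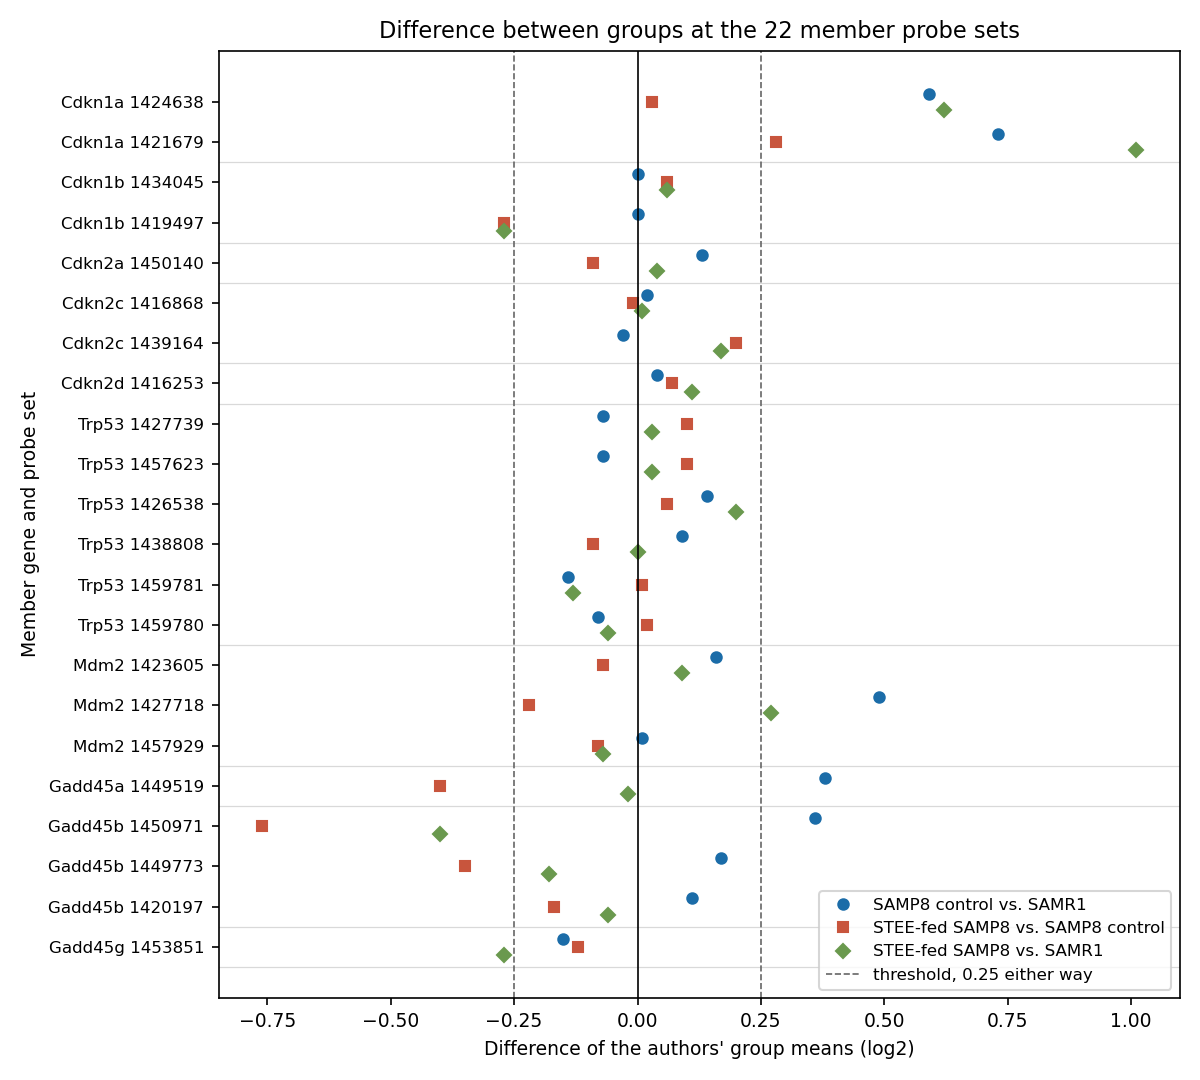
Difference of the authors' group means on the log2 scale (horizontal axis) at each of the 22 probe sets, with a blue circle for SAMP8 control vs. SAMR1, a red square for STEE-fed SAMP8 minus SAMP8 control and a green diamond for STEE-fed SAMP8 minus SAMR1. Dashed lines mark 0.25 either way; the Cdkn1a circles lie at 0.59 and 0.73 and the lowest red square, Gadd45b, at -0.76.

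STEE-fed SAMP8 and SAMR1 have no array in common, so this comparison is free of the shared control. The groups differ in both strain and treatment, and no SAMR1 mice received STEE, so it does not separate strain from extract. *Cdkn1a* was higher in STEE-fed SAMP8 by 0.62, *Gadd45b* was lower (difference -0.40) and *Gadd45g* was lower (difference -0.27). At its other probe sets *Gadd45b* differed by -0.18 and -0.06, and its mean over the 3 probe sets, -0.21, did not reach the threshold. The 1 gene higher and 2 genes lower of 10 compare with 5.35% and 3.53% of all genes. By probe set, 3 of 22 were higher and 3 lower, against 5.46% and 4.0% of all. *Gadd45a*, at -0.02, was nearly equal in these groups, and the 4 Ink4 probe sets differed by 0.01 to 0.17, within the threshold.

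**Figure D4:**
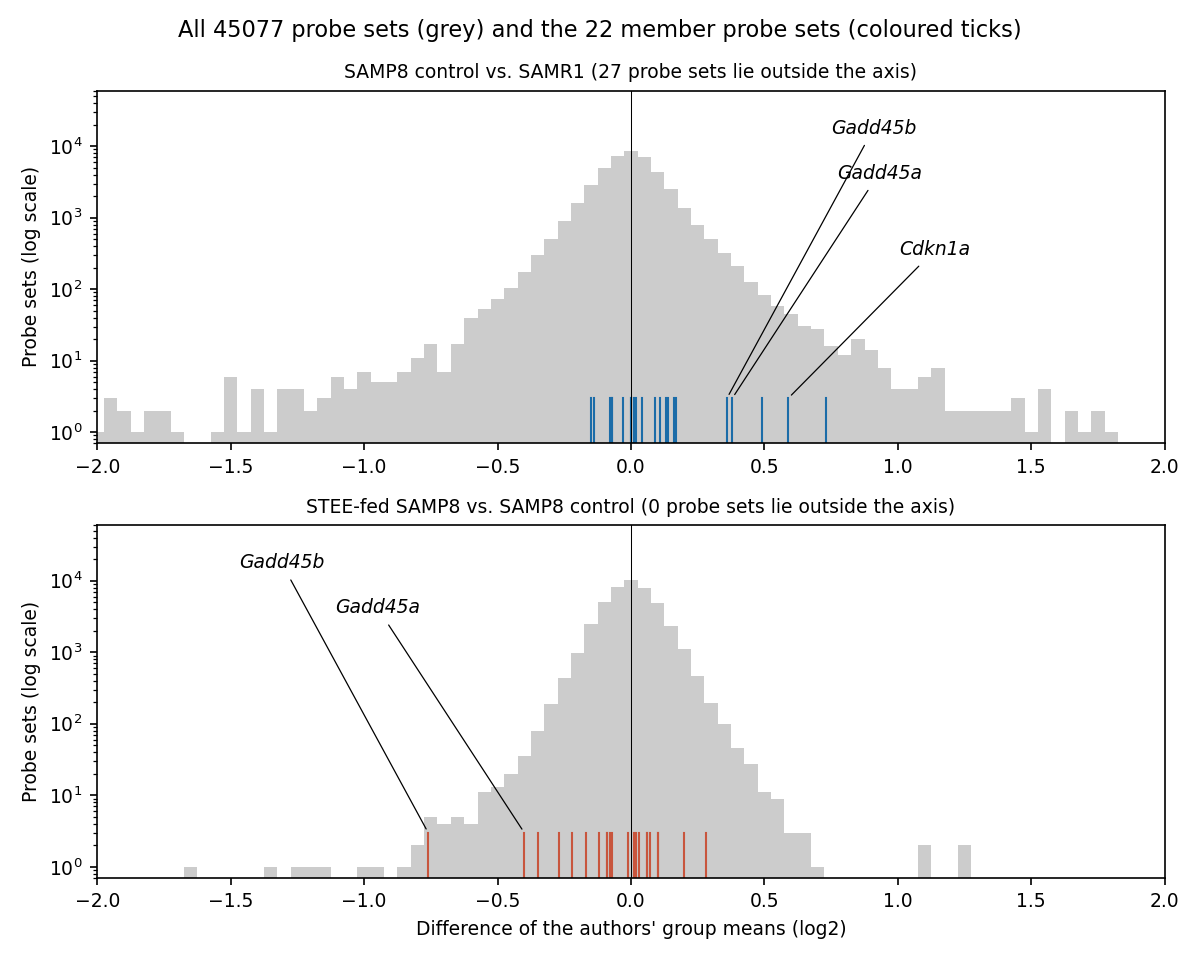
Distribution of the log2 differences of all 45077 probe sets (grey, number of probe sets on a log scale) for the strain comparison (top panel) and the comparison of STEE-fed SAMP8 with SAMP8 control (bottom panel), with the 22 member probe sets as coloured ticks. The strain panel leaves out 27 probe sets beyond 2 either way; Cdkn1a lies in the upper tail of the strain panel, and Gadd45b in the lower tail of the STEE panel, which is the narrower distribution.

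Other genes of the p53 pathway were read from lists that, like all lists here, were chosen with earlier results of these data known. None of 13 p53 regulators and kinases passed the threshold in either comparison with SAMP8 control at its brightest probe set. Of all genes, 8.09% passed it either way between the strains and 2.62% with STEE. The strain differences of the 13 ran from -0.16 to 0.24. *Ppm1d*, a phosphatase that dampens p53, had the highest, and its mean over 2 probe sets, 0.28, was past the threshold. Of 26 p53 target genes, 3 were higher and 1 lower in SAMP8 control than SAMR1, against 4.25% and 3.84% of all genes, with a median of 0.045 against 0.00 over all genes. *Pmaip1* (Noxa), a pro-apoptotic Bcl2 relative, was at 3.56, 4.13 and 4.30 in the 3 groups, a strain difference of 0.57 at a mean signal below the array median. *Ddit4*, an inhibitor of mTOR signaling, was at 6.70, 7.18 and 7.13. *Ccng1*, which encodes cyclin G1, was at 8.08, 8.41 and 8.65. *Bax*, the pro-apoptotic effector, was at 6.10, 5.83 and 5.92 and thus differed the other way (difference -0.27). The remaining 22 targets lay within the threshold at their brightest probe set, among them *Bbc3* (Puma, 0.07) and *Sesn1* (0.08). Averaged over their probe sets, the strain differences of *Tigar* (0.27), *Rrm2b* (0.26) and *Btg2* (-0.325) were past it, against 5.82% of all genes either way. That of *Ccng1* averaged 0.47. With STEE 0 of the 26 targets passed the threshold (1.40% of all genes higher, 1.22% lower), and the highest difference was that of *Ccng1*, 0.24.

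The kinases that these inhibitors restrain, with their cyclins and the Rb and E2F genes, mostly lay within the threshold. Of 18 such genes, 1 was higher and 1 lower in SAMP8 control than SAMR1 (4.25% and 3.84% of all genes), and 2 were lower with STEE (1.22%). *Ccnd2*, the cyclin D2 gene, was at 7.53 in SAMR1, 7.94 in SAMP8 control and 7.53 with STEE, and its strain difference averaged 0.21 over its 7 probe sets, within the threshold. *Ccnd1*, the cyclin D1 gene, was lower in SAMP8 control (difference -0.26), and *Cdk2*, the partner kinase of cyclin E, was lower with STEE (difference -0.30, mean over its 2 probe sets -0.16) at a mean signal below the array median. Of 10 proliferation markers, 8 lay below the array median in mean signal, among them *Mki67*, at 2.99 in SAMP8 control and 2.88 with STEE. Only *Mcm5* passed the threshold, higher by 0.27 in SAMP8 control, and its mean over 3 probe sets, 0.11, did not. Of all genes, 8.09% passed it either way between the strains and 2.62% with STEE. The 14 senescence-associated genes had a median of -0.035 between the strains and -0.04 with STEE. Against the same shares of all genes, *Glb1*, the lysosomal beta-galactosidase gene, was the only one past the threshold (0.30 between the strains). *Il6* (2.51, 2.47 and 2.44) and *Il1b* (4.08, 4.03 and 4.04) were low in every group.

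Among 15 genes that Gadd45 proteins work with, *Mbd4* and *Mapk11* were higher in SAMP8 control than SAMR1 and *Map2k3* was lower with STEE, against 4.25% of all genes higher and 1.22% lower in these comparisons. *Mbd4*, a DNA glycosylase that acts at methylated CpG sites, was at 4.80, 5.60 and 5.49, a strain difference of 0.80 that averaged 0.44 over its 3 probe sets. *Map2k3*, the kinase directly above p38, was at 5.90 in SAMR1, 6.07 in SAMP8 control and 5.70 with STEE, a difference of -0.37. *Mapk11*, a p38 kinase, was at 5.84, 6.10 and 6.29, and its strain difference of 0.26 averaged 0.14 over its 2 probe sets, within the threshold. The study lists *Map2k3* and *Mapk11* too among the genes it selected from these arrays. *Map3k4* itself, the kinase that Gadd45 proteins bind, was level at 6.59, 6.50 and 6.51, as were the 3 *Tet* demethylase genes, which differed by at most 0.12 in size in either SAMP8 comparison.

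Genes induced by neuronal activity had the largest median difference with STEE of the 17 lists read. The lists were chosen with earlier results of these data known, so this rank and the counts below are descriptions and no independent evidence. With STEE 10 of 12 were lower by the threshold and 0 were higher, against 1.22% and 1.40% of all genes, with a median of -0.57 against 0.00 over all genes. *Egr2* was at 5.38 in SAMR1, 5.77 in SAMP8 control and 4.54 with STEE, and *Fos* at 8.51, 8.66 and 7.46, both transcription factor genes of the immediate-early class. *Arc*, a regulator of synaptic AMPA receptors, was at 7.64, 8.36 and 7.23. Of the same 12 genes, 6 were higher and 0 lower in SAMP8 control than SAMR1, against 4.25% and 3.84% of all genes. The summed linear signal of this list was 2878 in SAMR1, 3607 in SAMP8 control and 2273 with STEE. The order was not shared by every gene of the list: 4 of the 12 were lower in SAMP8 control than SAMR1, among them *Junb* (6.06, 5.88 and 5.19) and *Dusp1* (8.42, 8.23 and 7.75). *Gadd45a* and *Gadd45b* had the order of the summed signal, with SAMP8 control highest and STEE-fed SAMP8 lowest. For *Gadd45a* the STEE and SAMR1 values were only 0.02 apart. The part of the activity-induced genes in the differences of these 2 genes was not tested.

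**Figure D5:**
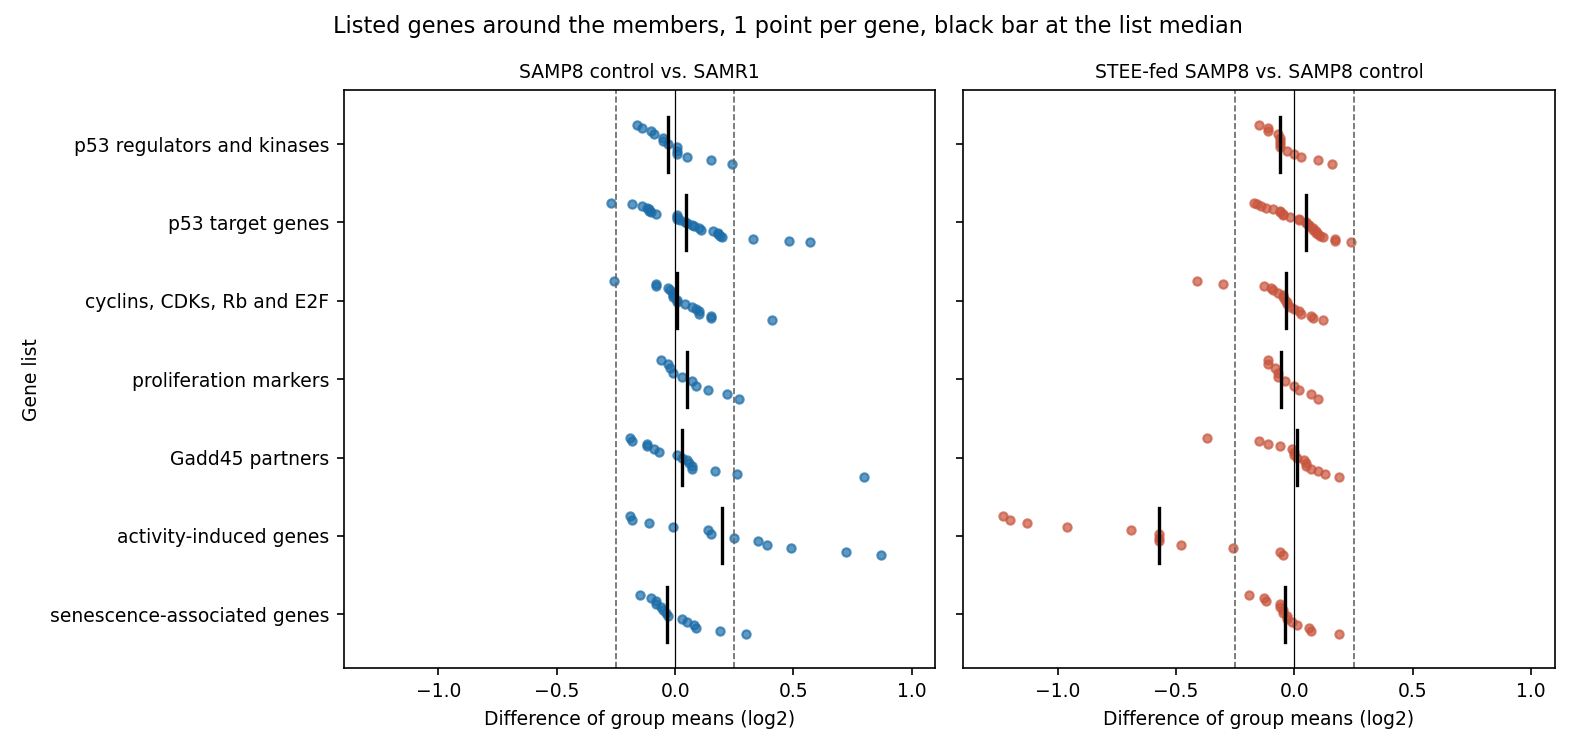
Log2 difference of the authors' group means (horizontal axes) for the genes of 7 lists around the members, 1 point per gene, with the list median as a black bar and dashed lines at 0.25 either way. The activity-induced genes lie left of 0 in the STEE panel, with a median of -0.57, whereas the other 6 medians stay within 0.06 of 0.

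The 5 genes whose pattern over the 3 groups was nearest to that of *Gadd45b*, by the distance between their 2 differences and those of *Gadd45b* over 20084 probe sets with a single symbol and a mean at or above the median, were *Fabp7*, *Nab2*, *Ier5l*, *Kif1b* and *Tiparp*. *Fabp7*, a fatty acid binding protein of radial glia and astrocytes, was at 8.26 in SAMR1, 8.43 in SAMP8 control and 7.63 with STEE. *Nab2*, a corepressor of Egr proteins, was at 6.08, 6.52 and 5.95. The distances of the 5 ran from 0.19 to 0.22 on the log2 scale. The likeness rests on 3 group means and describes these arrays alone.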

How the data were processed

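Cerebral cortex RNA of 6 mice, 2 in each of 3 groups, was measured on Affymetrix mouse whole-genome expression array strips. The authors summarized the probe intensities per probe set with RMA in Expression Console and used Transcriptome Analysis Console for group averages and comparisons. The deposited values are log2 group means, named bi-weight averages, rounded to 2 decimals. Their tables also hold linear fold changes, ANOVA p-values and FDR-adjusted p-values of the authors' own comparisons, which were not used here. The SAMP8 control means were identical in both tables (0 values differed). Genome build and annotation release of the array were not given in the sources used here.

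Groups were taken from the sample titles. Differences of the log2 group means were computed with Python 3.11.15, numpy 2.4.6 and pandas 2.3.3, and drawn with matplotlib 3.10.9. Rounding of the means can shift a difference by up to 0.01. Symbol entries were split where a probe set named several genes (1253 probe sets); no member probe set named another gene. Of 158 entries in 17 gene lists, 158 were matched to the array, 2 of them through an older symbol in the RefSeq gene table of GRCm38.p6. Named genes are all members, list genes past 0.25 or read as reference points, and the 5 nearest patterns to *Gadd45b*. The members and lists were chosen with earlier results of these data known. No test was run, since the means carry no spread between the 2 mice of a group, and precision is limited by the number of arrays. The computation was checked on simulated group means. Start-site sequences are RefSeq's, 250 bases for each of 13 start sites of all 10 members. Alternatives covered the threshold, the choice of probe set, the signal filter and centring. The values of 1 cortical neuron marker are not reported here.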

Additional observations from a re-analysis of the deposited data

How the results depend on the processing

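With a threshold of 0.15 in place of 0.25, 5 of the 10 genes passed in SAMP8 control vs. SAMR1, where 22.1% of all genes passed either way. At 0.15, 2 of the 10 passed in STEE-fed SAMP8 vs. SAMP8 control (12.9% of all genes) and 3 in STEE-fed SAMP8 vs. SAMR1 (23.8%). Both of these counts lay near the share of all genes. With 0.5, 1 gene passed in each of the 3 comparisons, against 1.58%, 0.244% and 1.67% of all genes. When any probe set of a gene could pass, 4 genes passed in SAMP8 control vs. SAMR1 (13.2% of all genes). In that setting 4 passed when STEE-fed SAMP8 was set against SAMP8 control and 5 against SAMR1 (4.50% and 14.5% of all genes). *Cdkn1a*, *Cdkn1b* and *Mdm2* each had a probe set past the threshold beside the brightest one. Under the mean over all probe sets, 2 genes passed in each of the 3 comparisons, against 5.82%, 1.67% and 6.68% of all genes. The counts were 3, 2 and 3, as in the main setting, under the remaining 3 alternatives. Leaving out probe sets that can cross-hybridize (8.10%, 2.58% and 8.99% of all genes) and centring groups on their medians (8.05%, 2.62% and 8.98%) were 2 of these. The third, a mean signal at or above the median (12.0%, 3.44% and 13.3%), left 8 of the 10 genes, without *Cdkn2a* and *Trp53*. It kept *Gadd45a* only through its SAMP8 control mean, so its calls there are no support. No difference past the threshold changed sign under any of these 4 settings. Of 114 recomputed differences, 98 stayed within 0.01 and 16 moved further, all 16 under the mean over all probe sets. The last 3 settings kept the brightest probe set of each gene they held and could not move a difference by more than 0.01. Their unmoved values are therefore no support. Under the mean over all probe sets 14 differences stayed within 0.01, mostly those of genes with a single probe set, which cannot move there.

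No leave-one-out analysis was run, because the values used here are group means. No paired analysis applied, because the groups were made up of different mice. The depth of an array is limited by signal over background: 11 of the 22 probe sets, including all 6 of *Trp53* and the only one of *Cdkn2a*, lay below the median of all probe sets.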
